A study of Homo sapiens with 8 samples.

Results

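The trefoil factors TFF1, TFF2 and TFF3 are 3 of the 18244 genes measured on arrays of lung adenocarcinoma cells that carry EN2 or a control vector. They were taken as every probe set whose array annotation gives one of these symbols alone, which left 1 probe set per gene: 11726812_a_at for TFF1, 11723751_at for TFF2 and 11718506_at for TFF3. The family was chosen by the measured A549 difference of TFF1 between EN2 and control cells, so member values of that comparison are given as a description without a test. No PC9 value of these genes is known to have entered that choice, and the members were tested there.

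Trefoil factors are small secreted peptides built on a compact, cysteine-rich fold, the trefoil domain, which resists digestion. Mucus-secreting epithelia release them together with mucins, and they are known for promoting the migration of epithelial cells over a wound and for protecting the mucosa. TFF1 and TFF2 are chiefly products of the stomach, and TFF3 is made by goblet cells of the intestine and airway. TFF1 is also a classical oestrogen-induced gene of breast cancer cells.

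The samples were A549 and PC9, established human lung adenocarcinoma lines, infected with EN2 or control Neo retrovirus and selected as stable cells. EN2 is an engrailed homeobox transcription factor of the developing midbrain and hindbrain. The 4 groups, each of 2 arrays, were A549 with EN2, A549 with the control vector (NC), PC9 with EN2 and PC9 with NC. The lines were kept in different media, F-12K for A549 and Dulbecco's modified Eagle medium for PC9. The labels name neither the promoter that drives EN2 nor whether stable cells were a pool or a clone. They also do not say that replicates were separate cultures, so the spread behind the p-values may be technical.

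Signals are RMA summaries on the log2 scale, so a difference of 1 is a doubling. As a background level, 95% of ERCC spike-in values (100 probe sets) lay at or below 4.42 in A549 and 3.94 in PC9. Medians of the A549 arrays were 6.33 to 6.35 and those of the PC9 arrays 6.102 to 6.109, and arrays of the lines shared no identical value (0%), so the scale of one line relative to the other is not known. All 6 epithelial markers were above background in both lines. In A549 so were 3 of 7 fibroblast, 4 of 6 immune and 3 of 5 endothelial markers. In PC9 these counts were 4 of 7, 4 of 6 and 4 of 5. The fibroblast genes LUM and DCN and the leukocyte gene PTPRC were among those below it in both lines. A signal above background was thus not particular to the epithelial markers. The brighter EN2 probe set read 7.71 and 7.62 with EN2, against 6.48 and 6.57 with NC, in A549. In PC9 it read 6.24 and 6.39 with EN2, against 5.86 and 5.78 with NC. The second EN2 probe set differed by 0.050 in A549 and 0.16 in PC9.

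TFF1, the gastric peptide, was the member with separate A549 groups by a wide gap. It read 9.97 and 9.84 on the A549 EN2 arrays, against 7.28 and 7.17 on the A549 NC arrays. Both EN2 arrays were high and both NC arrays low, with a gap of 2.55 between the lowest EN2 array and the highest NC array. The difference of the means was 2.68 ± 0.11 (SE), or 6.39-fold with a 95% interval of 5.41 to 7.55. With the brightest probe set standing for each gene, that was the largest difference in either direction among the 18244 genes in A549, followed by PKIB, an inhibitor of protein kinase A (−2.29). Among all 49495 probe sets TFF1 was number 4 by size, behind other probe sets of CEACAM6 (−3.27), PKIB (−2.86) and GASK1B (2.683, against 2.675 for TFF1). In bulk RNA, more cells making TFF1 and more TFF1 RNA per cell cannot be told apart.

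The 18S rRNA control signal moved with the groups in A549. It was 11.66 and 12.12 on the EN2 arrays, against 12.44 and 12.74 on the NC arrays, so the array lowest in 18S rRNA signal was the highest in TFF1 and the array highest in it was the lowest in TFF1. With that signal as a covariate the TFF1 difference was 2.47. Without the outermost array of each A549 group by that signal (EN2 replicate 1 and NC replicate 2) it was 2.55. With any single array left out it ran from 2.61 to 2.74. The covariate raised the SE of the TFF1 difference from 0.11 to 0.21. EN2 itself was then not called in A549 (1.11, limma adjusted p = 0.130). Leaving out the outermost arrays leaves 1 array in each A549 group, and EN2 differed by 1.15 there. A call that ended in either fit thus need not mean a smaller difference.

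In PC9, TFF1 read 7.52 and 7.78 with EN2, against 7.24 and 7.41 with NC. The groups did not overlap, but the gap was 0.11, smaller than the spread of either pair. The difference was 0.33 ± 0.11 (SE), or 1.25-fold with a 95% interval of 1.06 to 1.48, and it did not pass limma's test (unadjusted p = 0.013, Benjamini-Hochberg adjusted p = 0.497 over 18244 genes). With 2 arrays a group, p = 0.333 is the smallest a two-sided exact permutation test allows. Counted from the highest difference, TFF1 was number 215 of 18244 in PC9.

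**Figure D1:**
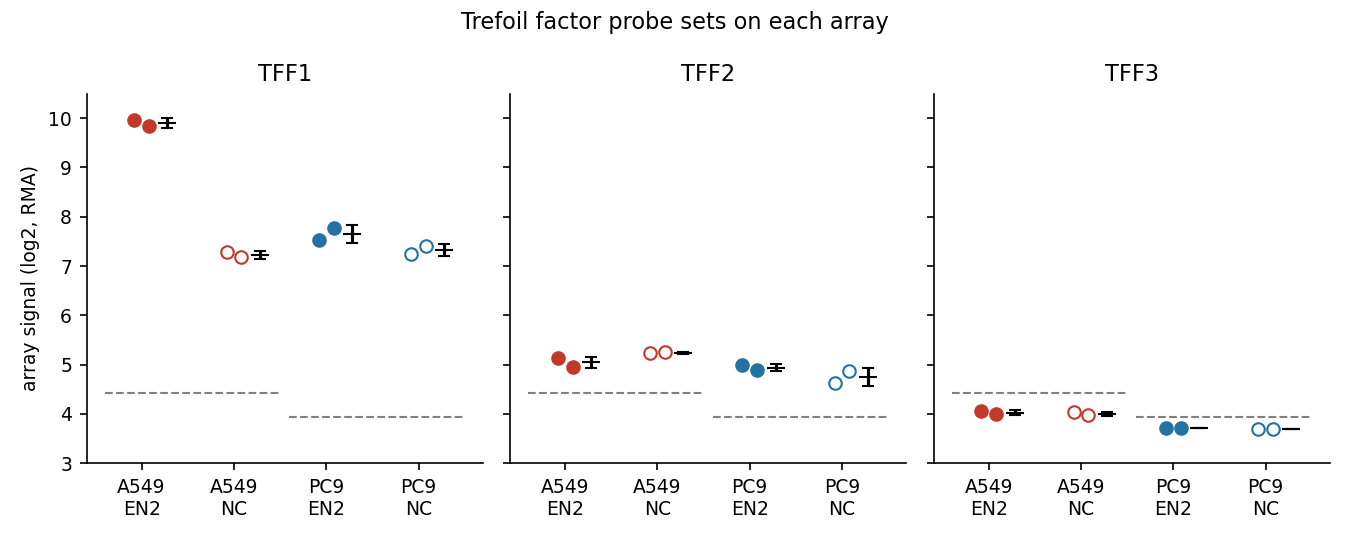
Signal (log2, RMA) of the TFF1, TFF2 and TFF3 probe sets on each array. Filled points are EN2 arrays and open points NC arrays, the black bars beside them are the mean ± SD of 2 arrays, and dashed lines are the spike-in background of each line (4.42 in A549, 3.94 in PC9). Only the A549 EN2 arrays of TFF1, at 9.97 and 9.84, stand clear of the other TFF1 arrays, and TFF3 lies under the background throughout.

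TFF2, the gastric peptide that carries a pair of trefoil domains, did not follow TFF1. In A549 it read 5.13 and 4.96 with EN2, against 5.23 and 5.26 with NC, so both EN2 arrays lay under both NC arrays by 0.098. The A549 difference was −0.20 ± 0.11 (SE). In PC9 TFF2 read 4.98 and 4.89 with EN2, against 4.62 and 4.88 with NC. There both EN2 arrays lay above both NC arrays, but by 0.011, and the difference of 0.19 ± 0.11 (SE) did not pass (limma adjusted p = 0.885). Its 95% interval of −0.055 to 0.43 on the log2 scale includes a change of up to 1.35-fold. TFF2 was above the spike-in background in all groups, by 0.62 to 1.0 on the log2 scale.

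TFF3, the goblet cell peptide, was below the spike-in background on every array, so its changes cannot be read as changes of RNA. It read 4.06 and 3.99 in A549 with EN2, against 4.03 and 3.97 with NC, and these groups overlapped. In PC9 it read 3.71 on both EN2 arrays, against 3.70 on both NC arrays. The differences were 0.023 ± 0.079 in A549 and 0.011 ± 0.079 in PC9 (SE), the PC9 value with limma adjusted p = 1.

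Set in order, the mean TFF1 signal was 9.90 ± 0.095 in A549 with EN2, 7.65 ± 0.18 in PC9 with EN2, 7.32 ± 0.12 in PC9 with NC and 7.23 ± 0.077 in A549 with NC (SD, n = 2 arrays each). The NC arrays of the lines overlapped, with A549 minus PC9 at −0.094 on the deposited scale. That value was −0.19 after quantile normalisation over all arrays and −0.33 after median centring. With EN2 the same A549 minus PC9 difference of TFF1 was 2.25, and 2.01 after median centring.

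For TFF2 the order was 5.24 ± 0.022 in A549 with NC, 5.04 ± 0.12 in A549 with EN2, 4.94 ± 0.066 in PC9 with EN2 and 4.75 ± 0.18 in PC9 with NC. The A549 EN2 and PC9 EN2 arrays overlapped. The NC difference between the lines, 0.49 as deposited, was 0.079 after quantile normalisation and 0.25 after median centring, so the place of the lines in that order depends on the scale. For TFF3 the A549 minus PC9 difference with NC was 0.31 as deposited and −0.058 after quantile normalisation, and all its levels were below background.

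The change of TFF1 was 2.35 ± 0.15 (SE) higher in A549 than in PC9, while those of TFF2 and TFF3 differed between the lines by −0.39 ± 0.15 and 0.012 ± 0.11. These differences contain the A549 change and were not tested. EN2 itself changed by 1.15 in A549 on its brighter probe set and was called there (limma adjusted p = 0.00028). In PC9 its change of 0.50 stayed above the threshold of 0.05 (limma adjusted p = 0.080), with both EN2 arrays above both NC arrays. The EN2 change was 0.65 larger in A549 than in PC9, which limma did not call either (adjusted p = 0.064).

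Against all genes, the size of the A549 difference placed TFF1 at number 1, TFF2 at 3723 and TFF3 at 15599 of 18244. In PC9 the same ranks were 458, 1966 and 16358. The middle 95% of genes had differences of −0.34 to 0.43 in A549 and of −0.25 to 0.26 in PC9. TFF1 thus lay far outside that range in A549 and slightly above it in PC9, and TFF2 and TFF3 lay within it in both lines.

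**Figure D2:**
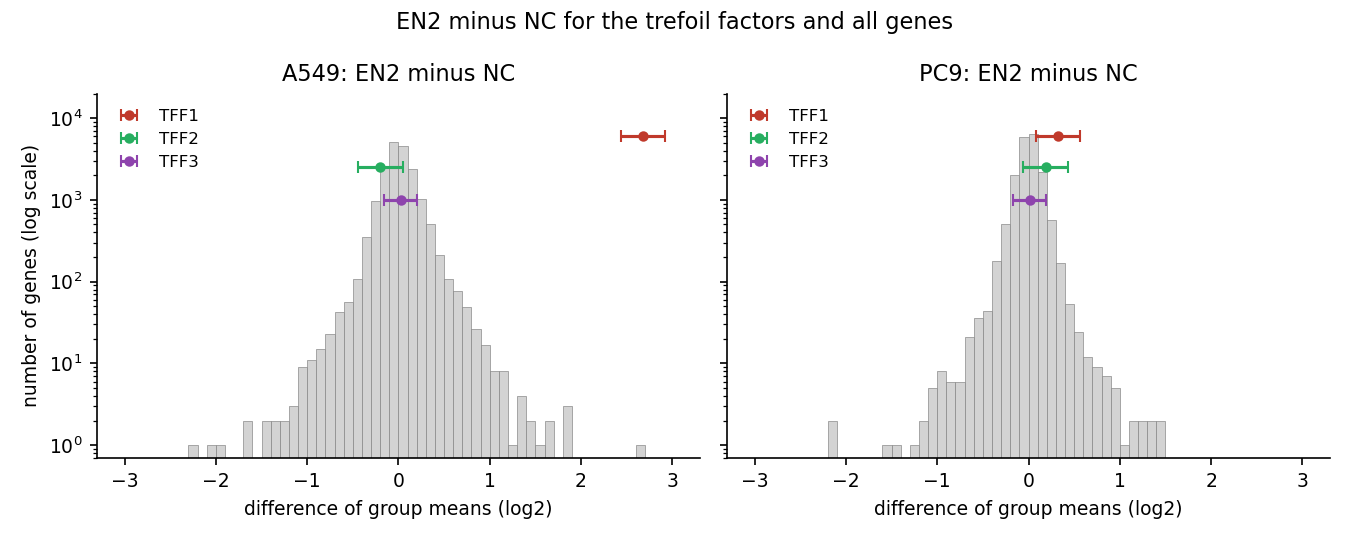
Number of genes (log scale) by their EN2 minus NC difference (log2) in A549 and PC9, in grey. Points with 95% intervals mark TFF1, TFF2 and TFF3 at arbitrary heights: TFF1 lies at 2.68 in A549, beyond every grey bar other than its own, and at 0.33 in PC9.

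The genes with values most like those of TFF1 were sought by the Euclidean distance between the 8 array values, each centred on the mean of its line. The 6 nearest were IQGAP2, a cytoskeletal scaffold, at a distance of 0.90, DIO2, which activates thyroid hormone, at 0.92, the carbonic anhydrase CA2 at 1.11, the pentraxin NPTX1 at 1.13, the BMP antagonist GREM1 at 1.16 and GASK1B at 1.18. For scale, TFF1 itself lay at 2.71 from a gene without any change. Their A549 differences were 1.56 to 1.86 on the brightest probe sets. These could only lie below that of TFF1, which was the largest of all genes. Their other probe sets spread more widely in A549. They ran from 0.47 to 1.46 for IQGAP2, 0.57 to 1.42 for DIO2, 0.53 to 2.08 for GREM1 and 0.58 to 2.683 for GASK1B. The other NPTX1 probe set differed by 0.49, and CA2 had 1 probe set. With the 18S rRNA covariate the A549 difference of GREM1 was 0.66, and without the outermost arrays 1.24. In PC9 their differences ran from −0.062 for GREM1 to 0.53 for CA2. IQGAP2 and GASK1B were below background there. They were picked for likeness, so no test is given.

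CA2, whose product hydrates carbon dioxide, had the largest PC9 difference of the 6. It read 8.60 and 8.44 with EN2, against 6.78 and 6.98 with NC, in A549. In PC9 it read 8.19 and 8.43 with EN2, against 7.88 and 7.68 with NC. The PC9 groups of DIO2 did not overlap either (0.28), but its 4 other probe sets differed by −0.12 to −0.073 there. For TFF2 the 3 nearest genes were USP29, FAM149B1 and CD209, at distances of 0.086 to 0.094, where TFF2 itself lay at 0.36 from no change. USP29 was below background in both lines.

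**Figure D3:**
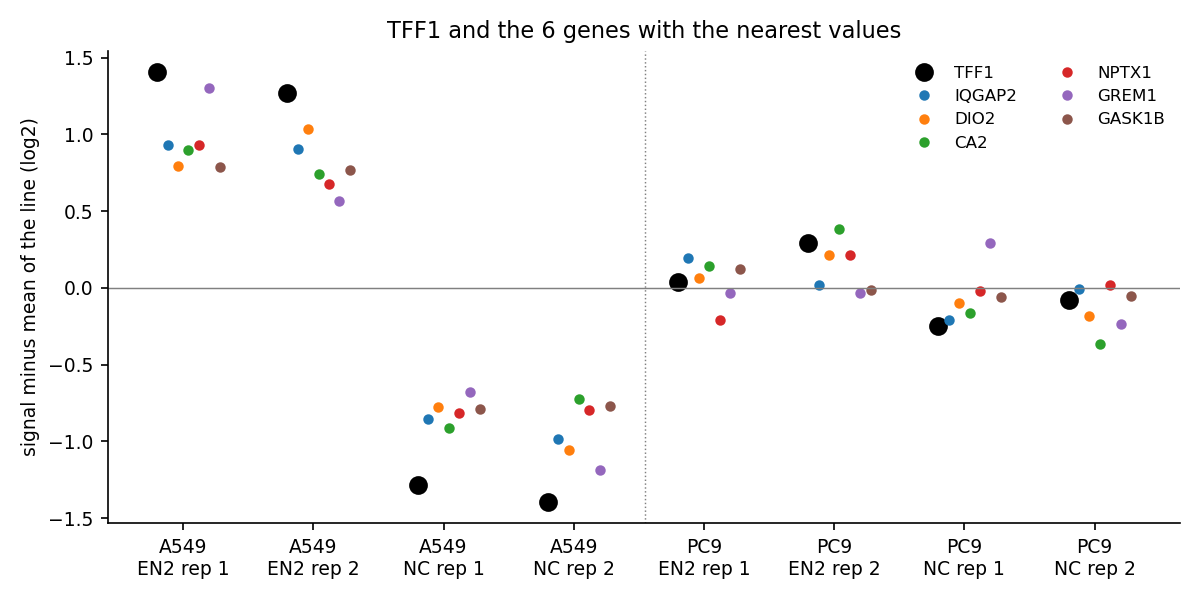
Signal minus the mean of the line (log2) on each of the 8 arrays, EN2 arrays left of NC arrays in each line. Black points are TFF1 and coloured points the 6 genes nearest to it, which are above zero on the A549 EN2 arrays and below zero on the A549 NC arrays with smaller sizes than TFF1.

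TFF3, TFF2 and TFF1 lie side by side on chromosome 21 among measured genes, in the gene order of the GRCh38.p14 annotation. The 10 measured genes on each side were set beside them. ABCG1, a cholesterol efflux transporter and the nearest gene beyond TFF3, read 8.69 and 8.10 with EN2, against 8.21 and 7.80 with NC, in A549, and the groups overlapped (difference 0.40 ± 0.23 SE, limma adjusted p = 0.421). TMPRSS3, a membrane serine protease and the nearest gene beyond TFF1, differed by −0.0011 ± 0.082 in A549 (limma adjusted p = 0.999) and by −0.11 ± 0.082 in PC9 (adjusted p = 0.977). None of the 20 neighbours was called in either line by limma at an adjusted p below 0.05. At an unadjusted p below 0.05, 1 was higher and 3 were lower in A549, and 3 were higher and none lower in PC9. Over all genes those shares were 9.87% higher and 7.54% lower in A549, and 3.55% higher and 3.20% lower in PC9.

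Over all genes, limma called 1.57% higher and 1.15% lower in A549, and 0.148% higher and 0.219% lower in PC9, so a count of 0 in 20 is near the background. The neighbours' differences ran from −0.31 to 0.40 in A549, with a median of −0.047 beside −0.0015 for all genes. In PC9 they ran from −0.13 to 0.42, with a median of 0.044 beside 0.0040. The TFF1 difference in A549 thus stood beside differences of at most 0.40 in either direction among its measured neighbours, TFF2 and TFF3 included. Without A549 NC replicate 1, 1 neighbour was called higher and 1 lower in A549.

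**Figure D4:**
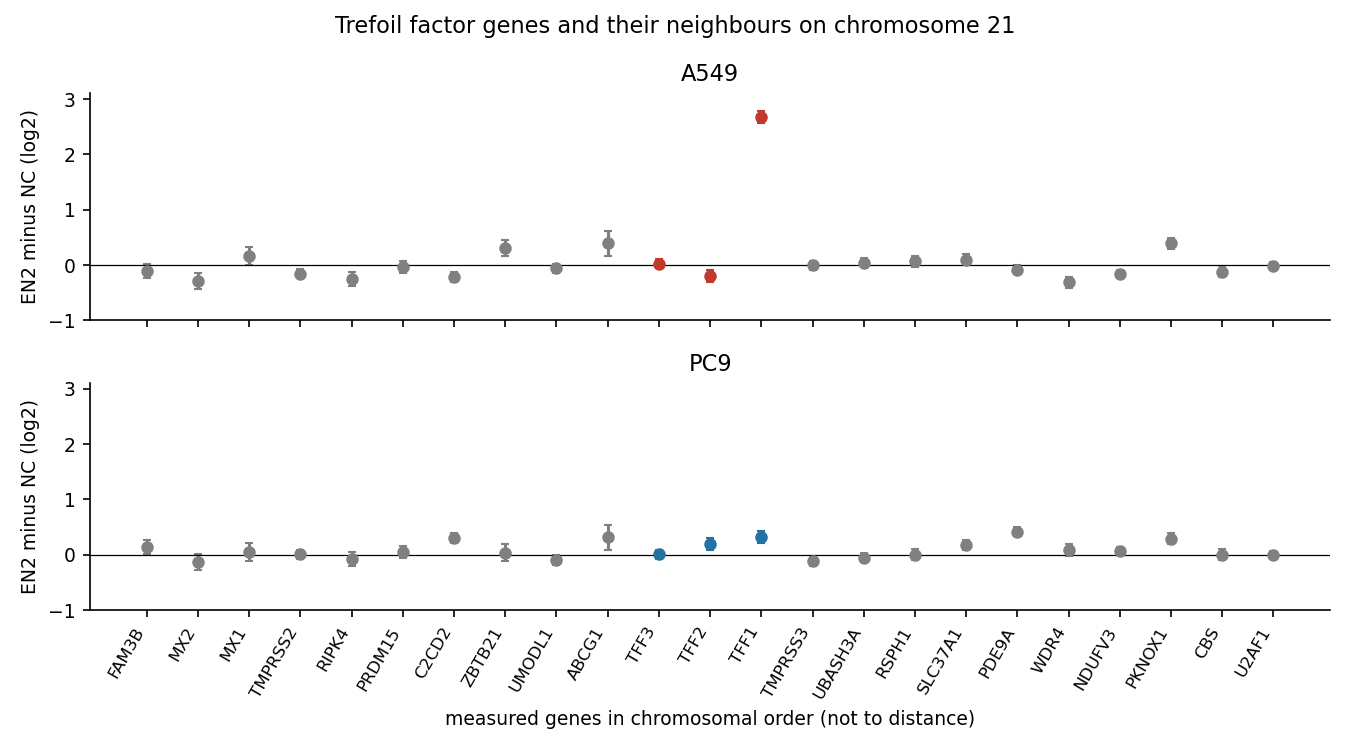
EN2 minus NC difference ± SE (log2) in A549 (top) and PC9 (bottom) for the trefoil factor genes, coloured, and the 10 measured genes on each side, grey, in chromosomal order without distances. TFF1 stands at 2.68 in A549, and the other points lie between −0.31 and 0.40 there and between −0.13 and 0.42 in PC9.

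Transcription factors reported to act at trefoil promoters were looked at as a group. Of 20 measured, 3 rose in A549, none fell and 17 did not pass, beside 1.57% higher and 1.15% lower over all genes. Their median was 0.060, against −0.0015 for all genes. The 3 were GATA6, a zinc finger factor of endoderm that activates gastric trefoil genes, SOX9, a factor of progenitor cells, and EPAS1, the hypoxia-inducible factor HIF-2α. GATA6 read 8.12 and 7.73 with EN2, against 7.14 and 7.01 with NC, in A549, which is a rise of 0.85 ± 0.16 (SE, limma adjusted p = 0.0232). SOX9 rose by 0.49 (adjusted p = 0.0146) and EPAS1 by 0.43 (adjusted p = 0.0193).

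In PC9 GATA6 read 7.42 and 7.05 with EN2, against 7.99 and 7.77 with NC. That difference of −0.64 ± 0.16 (SE) did not pass (limma adjusted p = 0.228), although the groups did not overlap. The difference between the lines, 1.49 ± 0.22 (SE), passed limma's test (adjusted p = 0.0189). The A549 calls of GATA6, SOX9 and EPAS1 each ended without EN2 replicate 1 (0.65, 0.45 and 0.36) and without NC replicate 2 (0.78, 0.49 and 0.35), and with the 18S rRNA covariate (0.33, 0.41 and 0.16), with adjusted p = 0.0947 to 0.988.

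ESR1, the oestrogen receptor that induces TFF1 in breast cells, was not called in either line. Its brightest probe set read 6.46 and 6.55 with EN2, against 6.61 and 6.62 with NC, in A549 (limma adjusted p = 0.595). In PC9 it read 5.59 and 5.45 with EN2, against 5.75 and 5.77 with NC (adjusted p = 0.619). The 5 probe sets of ESR1 differed by −0.12 to 0.10 in A549 and by −0.24 to 0.044 in PC9. The dimmest in A549 read 4.20 with EN2 and 4.27 with NC, below background. The pioneer factor FOXA1 differed by 0.0078 in A549 and 0.098 in PC9, and FOXA2 by −0.12 and 0.16. The hypoxia factor HIF1A differed by −0.083 and −0.11, and SPDEF, a factor of mucous cells, by −0.0094 and 0.019. In PC9 no factor of the list was called by limma, beside 0.148% higher and 0.219% lower over all genes. At an unadjusted p below 0.05, 2 of 20 were higher and 3 lower there, beside 3.55% and 3.20% over all genes. In A549 those counts were 7 and 0, beside 9.87% and 7.54%.

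Oestrogen-response genes known from breast cancer cells were called in both directions. Of 24 measured, 1 rose in A549, 1 fell and 22 did not pass, beside 1.57% higher and 1.15% lower over all genes, and their median was 0.043. SLC7A2, a transporter of cationic amino acids, rose by 0.71 ± 0.12 (SE, limma adjusted p = 0.0181), though 1 of its 4 probe sets had the other sign. TPD52L1 fell by 0.35 (adjusted p = 0.0214). Both calls ended without EN2 replicate 1 (0.63 for SLC7A2 and −0.33 for TPD52L1) and without NC replicate 2 (0.55 and −0.31). Adjusting for 18S rRNA signal ended both as well (0.34 and −0.25, with adjusted p = 0.946 and 0.850), and so did leaving out the outermost arrays (0.47 and −0.29). No gene of this list was called in PC9 by limma, beside 0.148% higher and 0.219% lower over all genes. At an unadjusted p below 0.05, 2 were higher and 4 lower there, beside 3.55% and 3.20% over all genes. In A549 those counts were 5 and 5, beside 9.87% and 7.54%. The progesterone receptor gene PGR, a standard oestrogen target, was below background in both lines. Of the 24 genes measured, 22 were above background in A549 and 21 in PC9.

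Among binding partners and reported receptors of trefoil peptides, the one called gene was lower. FCGBP encodes a mucus protein that pairs with TFF3 in goblet cell secretions. It read 5.99 and 5.94 with EN2, against 6.996 and 6.97 with NC, in A549, and fell by 1.02 ± 0.091 on the log2 scale (SE, limma adjusted p = 0.000523). In PC9 FCGBP read 4.16 and 4.12 with EN2, against 4.01 and 4.19 with NC, and was not called (adjusted p = 1). The difference between the lines of −1.06 ± 0.13 (SE) passed limma's test (adjusted p = 0.00775). The PC9 signal lay close to the PC9 background of 3.94, so a fall as large as that in A549 could not be seen there. With the 18S rRNA covariate the A549 difference was −1.08 and not called (adjusted p = 0.162), a fit in which EN2 was not called either. Without the outermost arrays by that signal the A549 difference of FCGBP was −1.06.

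The other 13 of 14 partners measured did not pass in A549, and no partner was called in PC9. Over all genes limma called 1.57% higher and 1.15% lower in A549, and 0.148% and 0.219% in PC9. At an unadjusted p below 0.05, 0 partners were higher and 1 lower in PC9, beside 3.55% and 3.20% over all genes. In A549 those counts were 2 and 1, beside 9.87% and 7.54%. CXCR4, a chemokine receptor reported to respond to trefoil peptides, read 5.69 and 5.42 with EN2, against 5.10 and 5.06 with NC, in A549 (difference 0.47 ± 0.11 SE, limma adjusted p = 0.0511). CXCR4 passed under quantile normalisation (adjusted p = 0.0396), with a robust prior variance (adjusted p = 0.0488) and without A549 EN2 replicate 2 (0.61, adjusted p = 0.0304). Its relative ACKR3 differed by 0.34 in A549 and by −0.31 in PC9 with no overlap of the groups in either line, neither called (adjusted p = 0.092 and 0.413). The gastrokine GKN2, which forms a dimer with TFF1 in the stomach, was below background in both lines. The gel-forming mucin MUC6 of the stomach differed by 0.0086 in A549 and MUC2 of goblet cells by 0.027, and MUC5AC was not analysed here.

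Of 32 genes of mucous secretory cells measured, none rose in A549, 2 fell and 30 did not pass, beside 1.57% higher and 1.15% lower over all genes, and their median was −0.034. Of the 6 epithelial markers, 4 fell in A549 as well by limma: the cadherin CDH1 (−1.11), EPCAM (−0.77) and the keratins KRT19 (−0.698) and KRT18 (−0.20). Their limma adjusted p-values were 0.000384, 0.00075, 0.0021 and 0.0476 in that order, so KRT18 passed narrowly. Their values with the 18S rRNA covariate are not given here. None of the 6 was called in PC9. Their part in the lower mucous genes and FCGBP was not tested. ANXA10, an annexin of gastric epithelium, read 4.91 and 4.85 with EN2, against 6.35 and 6.67 with NC. It fell by 1.63 on the log2 scale (limma adjusted p = 0.000181). In PC9 its difference of −0.62 did not pass (adjusted p = 0.091). With the 18S rRNA covariate its A549 difference was −1.50 and not called (adjusted p = 0.104). The adhesion molecule CEACAM6 fell by 0.69 in A549 (adjusted p = 0.0165), a call that ended without EN2 replicate 1 (−0.68), NC replicate 1 (−0.68) or NC replicate 2 (−0.698), with the 18S rRNA covariate (−0.64) or without the outermost arrays (−0.69). Its other 2 probe sets differed by −0.89 and −3.27 in A549 and by −0.697 and −1.41 in PC9, so the size of its change depends on the probe set. No gene of the mucous list was called in PC9 by limma, beside 0.148% higher and 0.219% lower over all genes. At an unadjusted p below 0.05, 0 were higher and 3 lower there, beside 3.55% and 3.20% over all genes. In A549 those counts were 2 and 3, beside 9.87% and 7.54%.

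**Figure D5:**
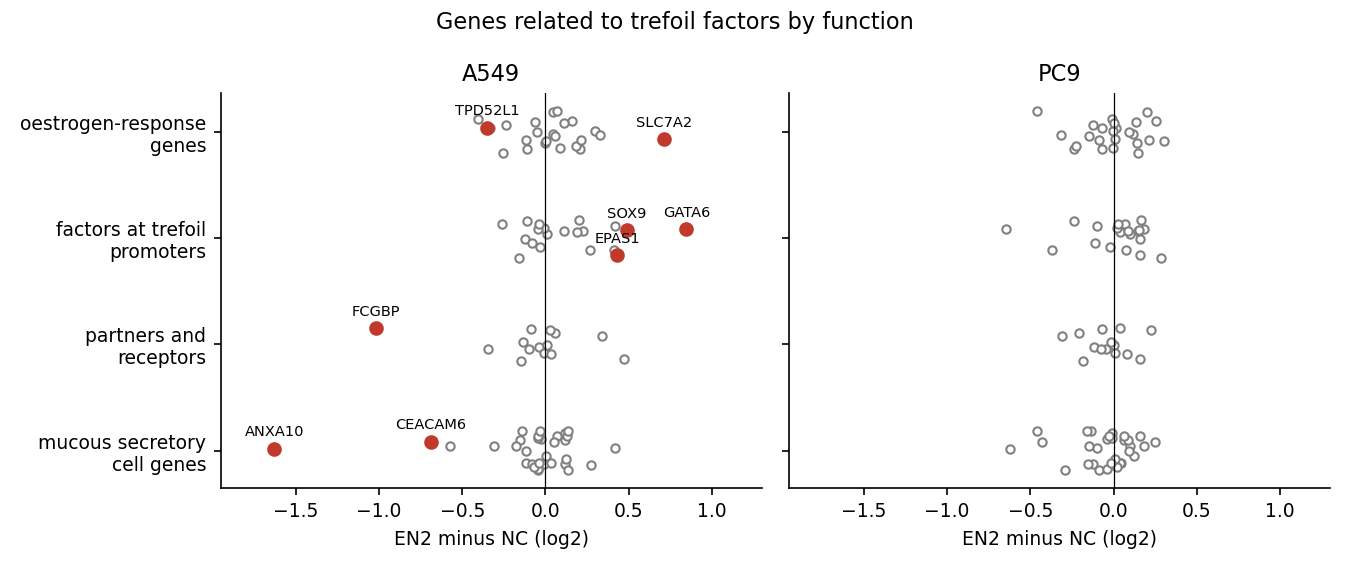
EN2 minus NC difference (log2) of each measured gene in the 4 lists of genes related to trefoil factors by function, in A549 (left) and PC9 (right), with random vertical jitter. Filled, named points were called by limma (adjusted p below 0.05) and open points were not: 8 filled points stand in A549 and none in PC9.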

How the data were processed

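Total RNA of 8 samples was hybridised to single-colour arrays. The authors deposited log2 values for 49495 probe sets, which the submitters' processing notes credit to RMA, with no version or run settings stated there. Genes were assigned from the array annotation through Entrez identifiers (45214 of 45284 with 1 symbol matched GRCh38.p14). The brightest probe set stood for a gene, giving 18244 genes without a filter.

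Group means were fitted over the 8 arrays together with limma 3.58.1 in R 4.3.3 (eBayes with an intensity trend, 4 residual degrees of freedom, two-sided). P-values were Benjamini-Hochberg adjusted over all genes, with calls below 0.05. The method was tested on simulated data.

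Members, lists, tests and alternatives were chosen with earlier results of these data known. Named genes were the members, EN2, set regulators and partners, the direct neighbours, up to 4 called genes per list and line, and the nearest genes by distance. PKIB, LUM, DCN, PTPRC, PGR, CDH1, EPCAM, KRT18 and KRT19 were named after their values were seen. The number of arrays limits the precision.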

Additional observations from a re-analysis of the deposited data

Results flagged for a closer look

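TFF2 lay lower with EN2 in A549 and higher with EN2 in PC9. Its groups did not overlap in either line, but the gap was 0.098 in A549 and 0.011 in PC9. The A549 change minus the PC9 change was −0.39, and that difference was not tested. GATA6 was flagged for the same pattern, and its difference of 1.49 passed limma's test (adjusted p = 0.0189). ACKR3 (0.65, adjusted p = 0.0691) and FOXA2 (−0.28, adjusted p = 0.437) also moved in opposite directions without overlap, and their differences did not pass. In PC9 the lower FOXA2 EN2 array read 5.58 and the higher NC array 5.56. FCGBP (−1.06, adjusted p = 0.00775) and ANXA10 (−1.004, adjusted p = 0.0319) differed between the lines by that test. FCGBP was close to background in PC9, where a fall as large as that in A549 could not be seen. USP29 (−0.44) and CD209 (−0.29), picked for their likeness to TFF2, went in opposite directions in the lines. They were chosen for this pattern, so no test of their differences is given. With 2 arrays a group in random order, the groups of a line separate with a probability of 0.333. The share of all genes with opposite directions and no overlap is not given here.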

How the results depend on the processing

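Without any 1 array the PC9 difference ran from 0.20 to 0.46 for TFF1, from 0.058 to 0.32 for TFF2 and from 0.0106 to 0.0116 for TFF3, and no alternative made a PC9 member pass. The A549 difference then ran from 2.61 to 2.74 for TFF1, from −0.28 to −0.11 for TFF2 and from −0.0089 to 0.056 for TFF3. With the 18S rRNA covariate the A549 differences were 2.47, −0.32 and −0.089, and without the outermost A549 arrays by that signal TFF1 was 2.55 and TFF3 −0.040. Between the NC arrays of the lines, quantile normalisation gave 0.079 for TFF2 and −0.058 for TFF3, and median centring −0.33 for TFF1, 0.25 for TFF2 and 0.066 for TFF3.

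Called genes were 496 in A549 and 67 in PC9. They were 976 and 138 probe sets when every probe set was tested, and 92 and 23 genes on the arrays of a line alone. With the 18S rRNA covariate 20 genes were called in A549, and without the outermost arrays 25 in A549 and 27 in PC9. Without any 1 array they ran from 112 to 623 in A549 and from 19 to 62 in PC9.

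Deviations of same-numbered arrays correlated across genes at 0.35 in A549 and 0.066 in PC9. With 2 pairs a line and no label of a shared origin, the numbers were not taken to pair the arrays. With the replicate number as a block 1393 genes were called in A549 and 126 in PC9, with 5 promoter factors, 2 partners, 4 mucous genes and 1 neighbour in A549 and 1 promoter factor, GATA6, in PC9 (−0.64, adjusted p = 0.0186). CXCR4 was the second partner in A549 (0.47, adjusted p = 0.0346).

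Of the A549 lists, 1 oestrogen-response gene was called with a constant prior variance or among brighter genes only, and 0 on the A549 arrays alone, with the 18S rRNA covariate or without the outermost arrays. Called promoter factors were 0 on the A549 arrays alone. With the covariate 1 was called, and it was lower with EN2, unlike the 3 factors called higher in the main fit. Called partners were 2 under a robust prior variance or quantile normalisation, and 0 among brighter genes, with the covariate or without the outermost arrays. Called mucous genes were 1 among brighter genes, 0 with the covariate and 1 without the outermost arrays. Without any 1 array the A549 counts ran from 0 to 3 for oestrogen-response genes, 0 to 4 for promoter factors, 1 to 2 for partners, 1 to 2 for mucous genes and 0 to 2 for neighbours, and in PC9 from 0 to 1 for mucous genes. The fit among brighter genes kept only genes with a mean signal above the median. FCGBP, ANXA10 and SLC7A2 were not in it, so its lower counts are not calls that failed. The cause of the other shifts was not tested.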
